A study of Mus musculus with 12 samples.

Results

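The methionine cycle of the liver is represented here by 9 genes of 25164 listed in mouse liver RNA: Mat1a, Gnmt, Pemt, Ahcy, Bhmt, Bhmt2, Dmgdh, Sardh and Shmt1. They were taken by gene symbol for the enzymes they encode, with earlier results of these data known. All 9 passed the filter on low counts, with 13477 genes in all. RNA was sequenced from the livers of 12 mice in 3 groups of 4 libraries, out of 10 mice assigned to each group. HFD + fenofibrate mice were given fenofibrate by gavage for 4 weeks after 10 weeks of high-fat diet, and stayed on that diet throughout; the drug lowers blood lipids by activating PPARA, a nuclear receptor abundant in liver. HFD mice had 14 weeks of the high-fat diet alone, and Control mice had the normal diet over the same time. No strain, sex or age of the mice is given in the labels, and no group received fenofibrate on a normal diet or is named as a gavage control. The labels do not tell whether libraries of a group shared a cage or a sequencing run. The spread behind the p-values of single genes is that between libraries within groups, estimated jointly over all 12 libraries.

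Liver is the main site of methionine breakdown in the body. MAT1A joins methionine to ATP to make S-adenosylmethionine, the methyl donor of the cell. GNMT and PEMT spend that methyl group on glycine and on phosphatidylethanolamine, leaving S-adenosylhomocysteine, which AHCY splits into adenosine and homocysteine. Homocysteine either leaves through transsulfuration towards cysteine and glutathione or is methylated back to methionine, by BHMT with betaine or by the folate-dependent enzyme MTR. BHMT turns betaine into dimethylglycine, and the mitochondrial enzymes DMGDH and SARDH strip the remaining methyl groups in turn to yield sarcosine and then glycine. SHMT1 exchanges a carbon unit between serine, glycine and folate in the cytosol.

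Against Control livers, HFD livers had less RNA of 6 of the 9 genes and more of none at an adjusted p under 0.05 (edgeR quasi-likelihood test, Benjamini-Hochberg adjustment over all 13477 genes, as for every adjusted p below unless another test is named). Of all genes tested, 6.64% were lower and 6.13% were higher in that comparison. The 6 were Mat1a, Gnmt, Ahcy, Bhmt, Bhmt2 and Sardh, while Pemt, Dmgdh and Shmt1 did not pass. With fenofibrate, 4 of the 9 were higher than in HFD livers (Mat1a, Ahcy, Bhmt2 and Sardh) and none was lower, where 6.89% of all genes were higher and 6.59% lower. At an unadjusted p under 0.05, 1 gene (Shmt1) was higher in HFD than in Control and 0 were lower in HFD + fenofibrate than in HFD. The number of all genes at that unadjusted threshold is not given here. DESeq2 and limma-voom called 0 of the 9 in both of these directions. Of all 13477 genes, DESeq2 called 998 higher in HFD than in Control, and limma-voom 819. For genes lower in HFD + fenofibrate than in HFD, these numbers were 1186 and 903. HFD + fenofibrate livers differed from Control livers in 2 of the 9, with Shmt1 higher and Ahcy lower, where 4.86% of all genes were higher and 4.31% lower. The median log2 fold change of the 9 genes was −0.41 for HFD against Control, 0.48 for HFD + fenofibrate against HFD and −0.29 for HFD + fenofibrate against Control, and that of all tested genes was −0.02, 0.01 and −0.01 in the same order. The 3 comparisons share libraries, so these values are not independent of each other. The counts stand beside the shares of all genes as a description, since the 9 were chosen with earlier results of these data known. Summed over the 9 genes, 1.79% ± 0.265 of all counts fell on them in HFD + fenofibrate livers, 1.08% ± 0.0854 in HFD livers and 1.98% ± 0.0429 in Control livers (SD, n = 4 each). Levels in HFD and Control libraries did not overlap for 5 of the 9 genes, and for 2377 of all 13477 genes. For HFD + fenofibrate and HFD these numbers were 5 and 2794, and for HFD + fenofibrate and Control 3 and 1772.

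**Figure D1:**
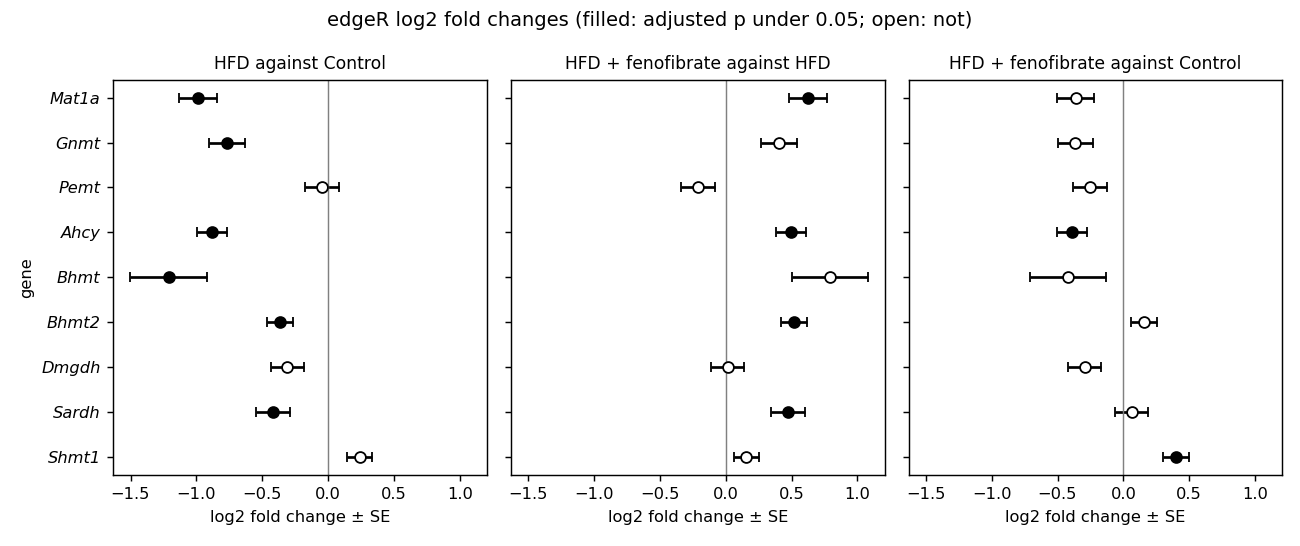
Log2 fold changes with their SE (horizontal axis) of the 9 genes (vertical axis) in the 3 comparisons of groups of 4 libraries, filled where the adjusted p was under 0.05. HFD against Control has 6 filled points, all left of 0, HFD + fenofibrate against HFD has 4, all right of 0, and HFD + fenofibrate against Control has Ahcy to the left and Shmt1 to the right.

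Total counts per library ran from 15797016 to 18514481. Hepatocyte markers, of which 9 of the 10 listed were found and none stood at 0, summed to 126100 ± 7230 CPM in HFD + fenofibrate livers, 131400 ± 5228 CPM in HFD livers and 141400 ± 6367 CPM in Control livers, where CPM scales counts to 1e6 per library. In bulk tissue, fewer cells of a type and less RNA per cell cannot be told apart. HFD + fenofibrate library 1 held 2164 CPM over the 12 pancreatic acinar markers, against 9.81 to 13.9 CPM in the other HFD + fenofibrate libraries, 18.2 to 31.4 CPM in HFD and 6.24 to 9.92 CPM in Control, where 9 of the 12 were at 0 in every Control library. The 8 striated muscle markers summed to 248.4 CPM in HFD + fenofibrate library 1 and to 198.6 CPM in library 3, and to no more than 1.03 CPM in each of the other libraries. None of these tissues is part of liver. Clock genes also stood at different levels in the groups: the 4 genes of the Dbp arm summed to 153.9 to 339 CPM in HFD + fenofibrate livers, 126 to 208 CPM in HFD livers and 34.1 to 46.4 CPM in Control livers. The 4 genes of the opposite Arntl arm summed to 75.2 to 96.9 CPM in HFD + fenofibrate livers, 74.6 to 117.8 CPM in HFD livers and 112.7 to 139.9 CPM in Control livers. The part of hepatocyte share, foreign tissue or clock phase in the results below was not tested, except that calls were also made without libraries 1 and 3.

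Levels within the pathway spanned a wide range. Per kilobase of annotated exon, Mat1a stood at 1778 ± 232.3 CPM in HFD + fenofibrate livers, 1153 ± 197.1 in HFD livers and 2285 ± 254 in Control livers, which ranked it 32, 53 and 30 of 13468 genes with a length. Gnmt stood beside it, at 1759 ± 410.7, 1328 ± 94.07 and 2265 ± 100.6 CPM per kilobase in the same order of groups, and the ranges of Mat1a and Gnmt overlapped in each group. Ahcy followed with 920.2 ± 128.5 in HFD + fenofibrate, 653.6 ± 60.17 in HFD and 1204 ± 38.51 in Control, and its range overlapped neither Gnmt nor Bhmt in HFD and Control livers. Bhmt had 661.6 ± 345.3, 382.3 ± 131.6 and 885.3 ± 126.9 CPM per kilobase. Its length of 5758 bases counts every annotated exon, among them a block of 3.608 kb. Which exons its transcripts used was not tested. A shorter length would raise its value and could change its place beside Ahcy, Gnmt and Mat1a. Bhmt stood above the remaining 5 genes in every library. Those 5 were much lower. Shmt1 was the lowest in all groups, at 54.28 ± 5.792 in HFD + fenofibrate, 48.65 ± 3.16 in HFD and 41.21 ± 2.708 in Control livers. Sardh was the highest of the 5 in HFD + fenofibrate livers (145 ± 4.902, against 125.5 ± 18.75 for Pemt), and Pemt in HFD (145 ± 15.84) and Control livers (149.5 ± 21.56). In Control livers the ranges of Pemt and Sardh overlapped, as did those of Sardh and Dmgdh, while Bhmt2 lay below Dmgdh and Shmt1 below Bhmt2 without overlap.

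Mat1a (ENSMUSG00000037798, GRCm38 chr14:41105035-41124412, plus strand) makes the methyl donor and is the adult-liver form of its enzyme. Its level, in CPM scaled by TMM as for every single gene below, was 6449, 6791, 6446 and 4984 in HFD + fenofibrate libraries 1 to 4, 4940, 3310, 3800 and 3951 in HFD libraries 1 to 4, and 7614, 9037, 6944 and 8102 in Control libraries 1 to 4. The 3 groups did not overlap, although HFD + fenofibrate library 4 lay just above HFD library 1. HFD livers averaged 4000 ± 683.6 CPM and Control livers 7924 ± 880.8 CPM, a log2 fold change of −0.99 ± 0.14 (SE; adjusted p = 4.4e-04). HFD + fenofibrate livers averaged 6167 ± 805.7 CPM, 0.62 ± 0.14 above HFD on the log2 scale (adjusted p = 0.0121) and −0.36 ± 0.14 against Control (adjusted p = 0.126). Without HFD + fenofibrate libraries 1 and 3 the change against HFD was 0.56 with an adjusted p of 0.138.

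Mat2a encodes the form of the same enzyme found outside liver and in growing cells, and it passed no test. It averaged 84.2 CPM in HFD + fenofibrate livers, 104.5 CPM in HFD livers and 89.99 CPM in Control livers, with adjusted p from 0.0552 (HFD + fenofibrate against HFD) to 0.603. The ratio of Mat1a counts to Mat2a counts within a library, which needs no scaling between libraries, was 78.05, 82.46, 74.71 and 58.32 in HFD + fenofibrate livers, 43.54, 35.72, 33.74 and 39.81 in HFD livers, and 93.35, 114.1, 71.77 and 79.07 in Control livers. All 4 HFD values lay below all others, and HFD + fenofibrate overlapped Control. The log2 ratio was lower by 1.21 in HFD than in Control (a difference of −1.21) and higher by 0.94 in HFD + fenofibrate than in HFD, with an exact permutation p of 0.0286 for each (two-sided). No lower p is possible with 4 libraries on each side, and it became 0.0857 after Benjamini-Hochberg adjustment over 9 tests of ratios, so neither difference passed. An adjusted p under 0.05 could come about only if most of the 9 tests reached that lowest p. HFD + fenofibrate differed from Control by −0.28 (exact permutation p = 0.2286, adjusted 0.2893).

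**Figure D2:**
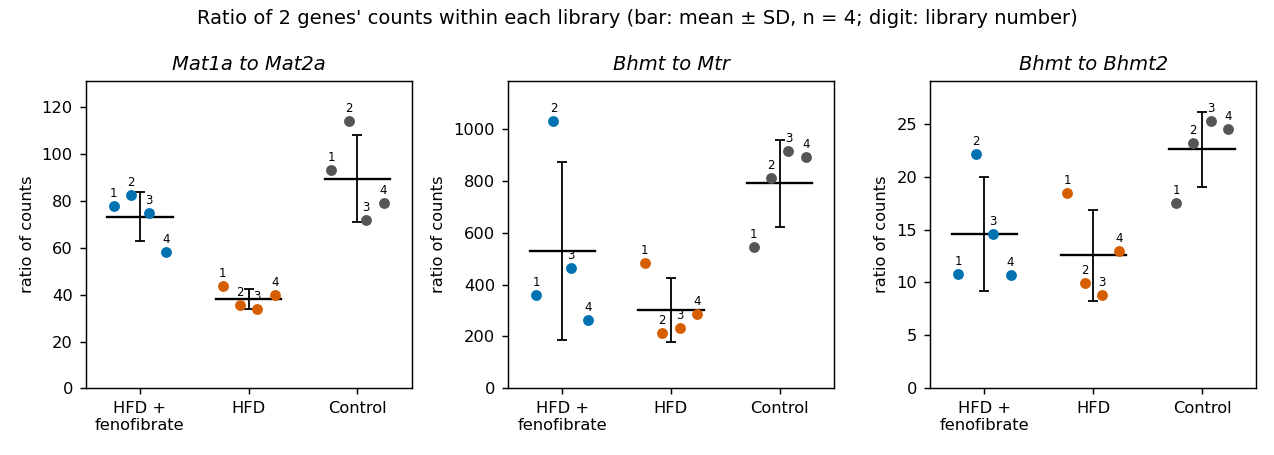
Ratio of the counts of 2 genes within each library (vertical axes, linear) for HFD + fenofibrate, HFD and Control livers; points are libraries with their number, and bars are the mean ± SD of 4 libraries. Mat1a to Mat2a is at most 43.54 in HFD livers and at least 58.32 elsewhere, while Bhmt to Mtr and Bhmt to Bhmt2 spread widely in HFD + fenofibrate livers, where library 2 is the highest.

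Gnmt (ENSMUSG00000002769, chr17:46725664-46729168, minus strand) consumes S-adenosylmethionine and is regarded as a buffer of its level in liver. It read 1874, 2856, 1789 and 1964 CPM in HFD + fenofibrate libraries, 1633, 1561, 1471 and 1740 CPM in HFD libraries, and 2566, 2720, 2846 and 2792 CPM in Control libraries. All 4 HFD values lay below the others, and HFD + fenofibrate library 2 alone reached the level of Control, just above its highest library. Gnmt was lower in HFD livers (1601 ± 113.5 CPM) than in Control livers (2731 ± 121.3 CPM), by −0.77 ± 0.14 on the log2 scale (adjusted p = 0.00176). At 2121 ± 495.3 CPM in HFD + fenofibrate livers, the change against HFD was 0.41 ± 0.14 and missed the threshold (adjusted p = 0.0583), as did the −0.36 ± 0.14 against Control (adjusted p = 0.108). For HFD + fenofibrate against HFD, DESeq2 (0.0248), no scaling factors (0.00442) and the authors' deposited table (0.0368) passed, and the other 22 alternatives did not (adjusted p from 0.0508 to 0.116). The change was 0.23 without HFD + fenofibrate library 2 (adjusted p = 0.116). Leaving out that library gave −0.54 against Control with an adjusted p of 0.0042.

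Pemt (ENSMUSG00000000301, chr11:59970614-60046489, minus strand) makes phosphatidylcholine for membranes, bile and lipoproteins from the same methyl donor. It passed no test in the 3 comparisons. Its values were 264.8, 310.8, 214.3 and 266.6 CPM in HFD + fenofibrate livers, 334.3, 288.6, 266.2 and 331.4 CPM in HFD livers, and 260.5, 370.4, 305.7 and 322.1 CPM in Control livers, so all 3 groups overlapped. Changes were −0.04 ± 0.13 for HFD against Control (adjusted p = 0.87), −0.21 ± 0.13 for HFD + fenofibrate against HFD (adjusted p = 0.293) and −0.25 ± 0.13 for HFD + fenofibrate against Control (adjusted p = 0.249). The first of these was positive under 3 alternatives, without Control library 2 (0.043), without HFD library 3 (0.0195) and with no scaling factors (0.0032).

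Ahcy (ENSMUSG00000027597, chr2:155059310-155074497, minus strand) clears S-adenosylhomocysteine, which inhibits methyltransferases when it builds up. Its level was 2366, 3120, 2425 and 2413 CPM in HFD + fenofibrate livers, 2051, 1804, 1839 and 1640 CPM in HFD livers, and 3454, 3266, 3304 and 3483 CPM in Control livers. No pair of groups overlapped, and HFD + fenofibrate lay between the other two, with library 2 close to Control. Means were 2581 ± 360.4, 1833 ± 168.8 and 3377 ± 108 CPM in that order. HFD was lower than Control by −0.88 ± 0.11 on the log2 scale (adjusted p = 1.5e-04). HFD + fenofibrate was higher than HFD by 0.49 ± 0.11 (adjusted p = 0.0128), or by 0.60 with an adjusted p of 0.0551 without libraries 1 and 3. It was lower than Control by −0.39 ± 0.11 (adjusted p = 0.043). That last call was lost when any library other than HFD 1 and HFD + fenofibrate 2 was left out (adjusted p from 0.0514 to 0.145). HFD libraries enter this comparison only through the shared spread, scaling, filter and adjustment.

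Many reads of Ahcy could also come from other loci. Of its 50-base exon windows, 68.7% occur in another annotated gene, 66% in Gm4737 and 30.2% in the processed pseudogene Gm9826. Gm4737 carried counts equal to 20% of those of Ahcy and moved alike, with log2 fold changes of −0.91 ± 0.11 for HFD against Control (adjusted p = 6.5e-05), 0.49 ± 0.11 for HFD + fenofibrate against HFD (adjusted p = 0.00949) and −0.42 ± 0.11 for HFD + fenofibrate against Control (adjusted p = 0.0212). No source used here tells how such reads were divided in the authors' counting. Adding the counts of both copies to Ahcy changed no call of Ahcy.

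Bhmt (ENSMUSG00000074768, chr13:93616675-93637961, minus strand) returns homocysteine to methionine with betaine, an oxidation product of choline. Relative to its mean, it spread more between libraries than the other 8 genes in HFD + fenofibrate and HFD livers: 2398, 6666, 3664 and 2510 CPM in HFD + fenofibrate livers, 3286, 1698, 1664 and 2158 CPM in HFD livers, and 4088, 5037, 5680 and 5586 CPM in Control livers. HFD did not overlap Control, whereas HFD + fenofibrate overlapped both, with library 2 above every Control library and libraries 1 and 4 below HFD library 1. HFD livers averaged 2202 ± 757.5 CPM against 5098 ± 730.5 CPM in Control livers, a log2 fold change of −1.21 ± 0.29 (adjusted p = 0.0129), or 0.432-fold. HFD + fenofibrate livers averaged 3810 ± 1988 CPM, with changes of 0.79 ± 0.29 against HFD (adjusted p = 0.0773) and −0.42 ± 0.29 against Control (adjusted p = 0.392). The change against HFD was 0.38 without HFD + fenofibrate library 2 and 1.05 without HFD library 1 (adjusted p = 0.0461). It passed in 3 of 24 alternatives, with a lowest adjusted p of 0.0187, while the authors' deposited table gives 0.227. Without HFD + fenofibrate library 2, the change against Control was −0.84 (adjusted p = 0.0311).

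The 2 libraries that stood apart for Bhmt also differed from their groups in other measures. HFD + fenofibrate library 2 had the lowest Dbp-arm sum of its group (153.9 CPM), the highest Arntl-arm sum (96.9 CPM) and the highest hepatocyte marker sum (135800 CPM). HFD library 1 had the lowest Dbp-arm sum of HFD (126 CPM) and the lowest sums of Kupffer cell (170.6 CPM) and endothelial markers (113.7 CPM). Mitochondrially encoded genes took 8.75% of counts in HFD + fenofibrate library 2, against 7.24% to 7.60% in the rest of its group, and 10.59% in HFD library 1, against 8.78% to 8.87% in the rest of HFD. Their group means were 7.72% ± 0.704 in HFD + fenofibrate, 9.27% ± 0.881 in HFD and 9.64% ± 0.454 in Control livers (SD, n = 4 each). The part of these measures in the level of Bhmt or of the other genes was not tested.

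Copies of Bhmt exist as well. Of its 50-base windows, 26.1% occur elsewhere, 24.1% in Gm5096 and 13.5% in the pseudogene Bhmt-ps1, but hardly any in Bhmt2. Counts of Gm5096 equalled 10.5% of those of Bhmt, and its log2 fold changes were −1.30 ± 0.28 for HFD against Control (adjusted p = 0.00697), 0.85 ± 0.28 for HFD + fenofibrate against HFD (adjusted p = 0.0542) and −0.45 ± 0.28 for HFD + fenofibrate against Control (adjusted p = 0.34). No call of Bhmt changed when the counts of its copies were added.

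**Figure D3:**
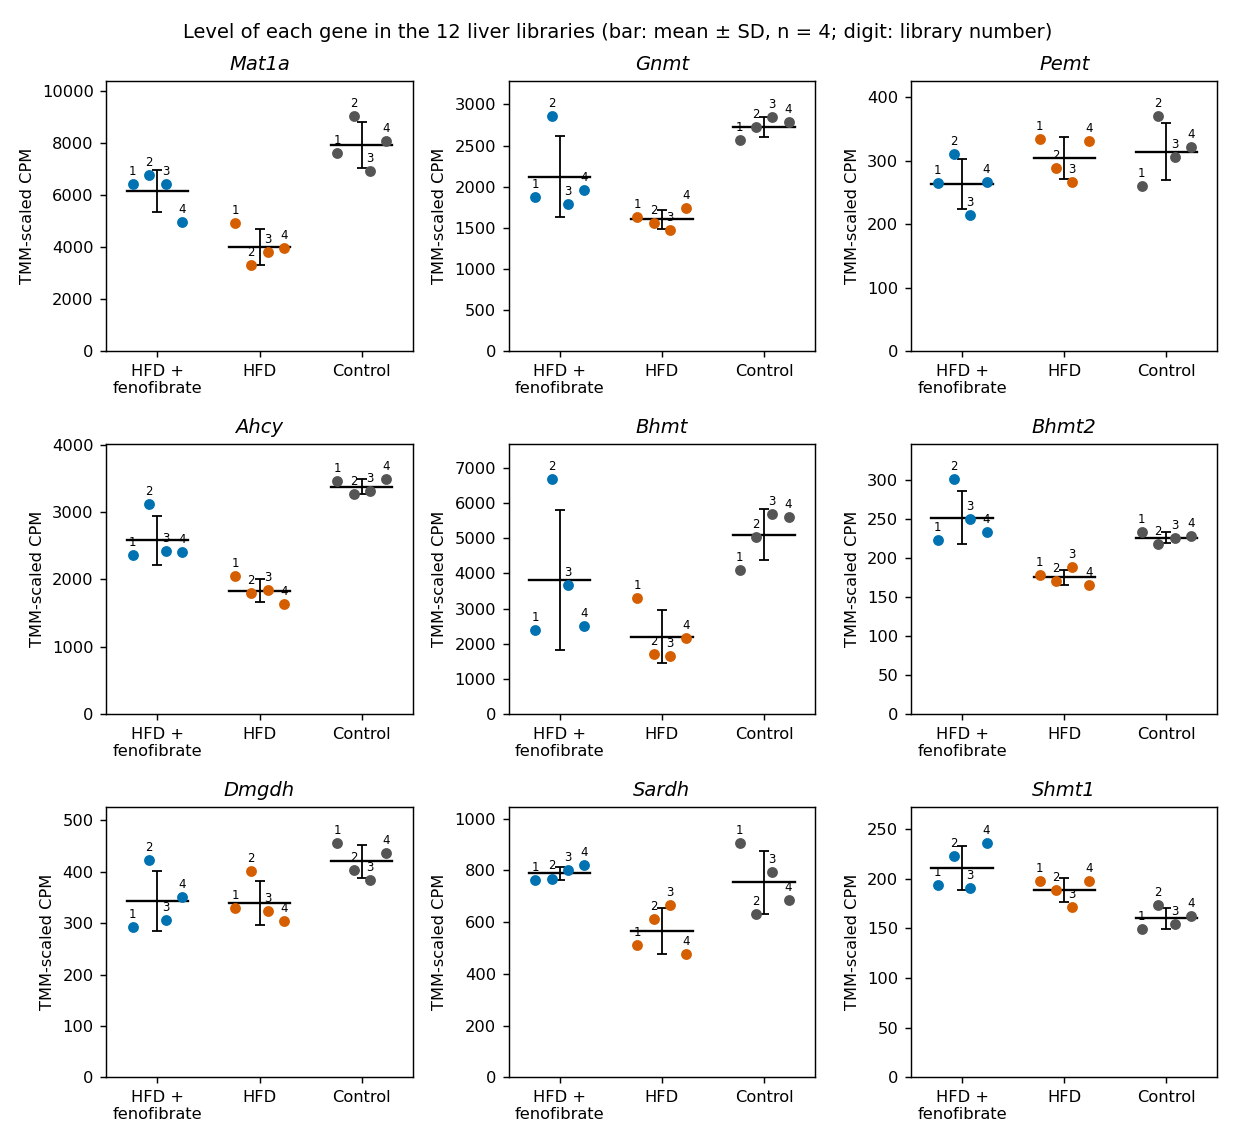
Level of each of the 9 genes in TMM-scaled CPM (vertical axes, linear, from 0) in HFD + fenofibrate, HFD and Control livers; points are libraries with their number, bars are the mean ± SD of 4 libraries. The 4 HFD points of Mat1a, Gnmt, Ahcy and Bhmt2 lie below all points of the other groups, and HFD + fenofibrate library 2 is the highest of its group for Mat1a, Gnmt, Pemt, Ahcy, Bhmt, Bhmt2 and Dmgdh.

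Bhmt was also set against Mtr, the folate-dependent route to methionine. Mtr itself was low, at 7.65 CPM in HFD + fenofibrate, 7.38 CPM in HFD and 6.56 CPM in Control livers, and passed no test (adjusted p from 0.354 to 0.828). There were 359.5, 1029, 461.9 and 264 counts of Bhmt per count of Mtr in HFD + fenofibrate libraries, 482.2, 213.6, 231.7 and 285.3 in HFD libraries, and 545.3, 809, 913.4 and 889 in Control libraries. HFD and Control did not overlap, and HFD + fenofibrate spanned both. The log2 ratio differed by −1.43 between HFD and Control (exact permutation p = 0.0286, adjusted 0.0857), by 0.68 between HFD + fenofibrate and HFD (p = 0.2571 by exact permutation, adjusted 0.2893) and by −0.75 between HFD + fenofibrate and Control (exact permutation p = 0.1714, adjusted 0.2571). None passed after adjustment, which would have needed most of the ratio tests to reach the lowest possible p.

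Bhmt2 (ENSMUSG00000042118, chr13:93655720-93674302, minus strand) encodes a relative of BHMT that takes the methyl group from S-methylmethionine. Its levels were 222.8, 300.9, 250.7 and 233.9 CPM in HFD + fenofibrate livers, 177.9, 170.9, 188.1 and 166.2 CPM in HFD livers, and 234.1, 217.8, 225.2 and 228.3 CPM in Control livers. Every HFD value was below every other value, and HFD + fenofibrate overlapped Control while reaching higher. The mean of 252.1 ± 34.53 CPM in HFD + fenofibrate exceeded the 175.8 ± 9.508 CPM in HFD by 0.52 ± 0.10 on the log2 scale (adjusted p = 0.00497), a call that held under all 24 alternatives tried. HFD was below the 226.3 ± 6.769 CPM of Control by −0.36 ± 0.10 (adjusted p = 0.0265). That smaller change lost its call without Control library 1 or 4 or without HFD library 1, 2 or 4 (adjusted p from 0.0535 to 0.0794), and also with no low-count filter (0.0539) and no scaling factors (0.0508). HFD + fenofibrate against Control gave 0.16 ± 0.10 (adjusted p = 0.36).

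Bhmt and Bhmt2 lie next to each other on the same strand with 17759 bases between them, and Dmgdh starts 131 bases from the start of Bhmt2 on the opposite strand, so that 3 of the 9 genes fall within 136159 bases of chromosome 13. Counts of Bhmt per count of Bhmt2 were 10.77, 22.15, 14.61 and 10.73 in HFD + fenofibrate livers, 18.47, 9.936, 8.844 and 12.98 in HFD livers, and 17.46, 23.12, 25.23 and 24.47 in Control livers. HFD and Control overlapped through HFD library 1 and Control library 1. The log2 ratio differed by −0.89 between HFD and Control (exact permutation p = 0.0571, adjusted 0.1029), by 0.21 between HFD + fenofibrate and HFD (exact permutation p = 0.5714, adjusted 0.5714) and by −0.68 between HFD + fenofibrate and Control (p = 0.0571 by exact permutation, adjusted 0.1029).

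**Figure D4:**
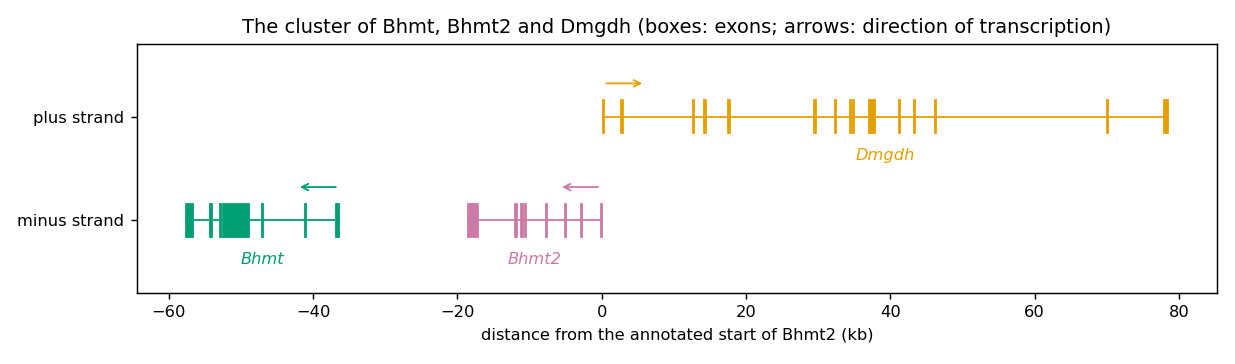
Map of Bhmt, Bhmt2 and Dmgdh on mouse chromosome 13, with exons as boxes, the strand on the vertical axis, arrows for the direction of transcription and the distance from the start of Bhmt2 in kb on the horizontal axis. Bhmt2 and Dmgdh start 131 bases apart and run away from each other, and Bhmt lies beyond the end of Bhmt2 on the same strand.

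Dmgdh (ENSMUSG00000042102, chr13:93674433-93752833, plus strand) takes over the dimethylglycine that BHMT produces. Despite its place beside Bhmt2, it passed no test in the 3 comparisons. It read 291.8, 421.9, 305.2 and 351.3 CPM in HFD + fenofibrate livers, 329.1, 400.7, 322.6 and 304.1 CPM in HFD livers, and 456.7, 402.9, 384.6 and 435.5 CPM in Control livers, with overlap between all groups. The change was −0.31 ± 0.13 for HFD against Control (adjusted p = 0.124), 0.01 ± 0.13 for HFD + fenofibrate against HFD (adjusted p = 0.954) and −0.29 ± 0.13 for HFD + fenofibrate against Control (adjusted p = 0.159, or 0.0384 at −0.41 without HFD + fenofibrate library 2). The 130 bases between the annotated starts of Bhmt2 and Dmgdh, shown because both genes start from its ends and yet only Bhmt2 passed a test, are on chr13:93674303-93674432 (GRCm38.p6, RefSeq), written 5′ to 3′ on the strand of Dmgdh.
Bhmt2 to Dmgdh: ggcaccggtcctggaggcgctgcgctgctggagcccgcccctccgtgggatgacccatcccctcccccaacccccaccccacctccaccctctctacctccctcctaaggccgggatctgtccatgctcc
The stretch is 70.8% G and C and holds 6 CG pairs. Whether Bhmt2 and Dmgdh differ in their response was not tested.

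Sardh (ENSMUSG00000009614, chr2:27188393-27248337, minus strand) acts on sarcosine, which both DMGDH and GNMT make. Its values were 763, 768.2, 800.6 and 818.9 CPM in HFD + fenofibrate livers, 511.3, 610.7, 666.4 and 475.6 CPM in HFD livers, and 907.2, 630.9, 792.7 and 686.9 CPM in Control livers. HFD + fenofibrate was the tightest group and lay wholly above HFD, while HFD and Control overlapped. Sardh was higher in HFD + fenofibrate (787.7 ± 26.63 CPM) than in HFD (566 ± 87.99 CPM) by 0.48 ± 0.13 on the log2 scale (adjusted p = 0.0264). The call was lost without HFD library 1 or 4 or HFD + fenofibrate library 1, 3 or 4, where the adjusted p lay between 0.0551 and 0.0845. It was also lost without libraries 1 and 3 of HFD + fenofibrate together (0.49, adjusted p = 0.187). HFD was below Control (754.4 ± 121.9 CPM) by −0.41 ± 0.13 with an adjusted p of 0.0459, close to the threshold. That call was lost in 17 of 24 alternatives (adjusted p from 0.0515 to 0.165), among them every omission of a library other than Control 2, HFD 3 and HFD + fenofibrate 2, and the authors' deposited table gives it 0.0606. In the comparison of HFD with Control, HFD + fenofibrate libraries enter only through the shared spread, scaling, filter and adjustment. HFD + fenofibrate and Control differed by 0.06 ± 0.13 (adjusted p = 0.812).

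Shmt1 (ENSMUSG00000020534, chr11:60788104-60811718, minus strand), the cytosolic serine hydroxymethyltransferase, was the 1 gene of the 9 that was called higher than in Control. It read 193.3, 222.7, 190.6 and 236.5 CPM in HFD + fenofibrate livers, 197.5, 188.8, 171.6 and 197.7 CPM in HFD livers, and 149.6, 173.8, 154.6 and 162.1 CPM in Control livers. HFD + fenofibrate lay wholly above Control, and HFD overlapped both. The mean of 210.8 ± 22.49 CPM in HFD + fenofibrate was above the 160 ± 10.51 CPM in Control by 0.40 ± 0.10 on the log2 scale (adjusted p = 0.0195), which held under all 24 alternatives (adjusted p up to 0.0496). HFD, at 188.9 ± 12.27 CPM, differed from Control by 0.24 ± 0.10 (adjusted p = 0.126, or 0.0476 in the authors' deposited table), and HFD + fenofibrate from HFD by 0.16 ± 0.10 (adjusted p = 0.286). Of the 50-base windows of Shmt1, 3.37% overlap Smcr8 on the other strand, and no source used here gives the strand setting of the counting.

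RefSeq start windows were matched for 8 of the 9 genes, all but Mat1a, in 9 windows from 250 bases before to 50 after a RefSeq start. The RefSeq starts are not always the outer ends of the gene spans given above. The windows of Shmt1 and Sardh and both windows of Pemt lie wholly inside those spans, and most of the window of Bhmt does too, while those of Ahcy, Gnmt, Bhmt2 and Dmgdh lie at the ends of theirs. A direct repeat of AGGTCA with 1 base between the copies (the form bound by PPARA with its partner RXR), the E-box CACGTG, the D-box TTATGTAA, the C/EBP motif TTGCGCAA and a glucocorticoid element (AGAACA and TGTTCT with 3 bases between) were searched on both strands, and none occurred in any of the 9 windows. The same motifs were held by 0.0396%, 7.15%, 0.938%, 0.183% and 0.00913% of 32851 promoters of that length. The single hexamer AGGTCA, looked for after these, occurred 3 times in the window of Bhmt, once each in those of Ahcy, Gnmt and Sardh, and in no window of the other 4 genes. At least 1 copy was present in 16.3% of all promoters, at least 2 in 1.81% and at least 3 in 0.183%. These matches are letters in a window and say nothing of binding.

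The sites of Bhmt are shown because it had the largest fall of the 9 with the diet. The upstream stretches of Ahcy and Gnmt are shown because these genes fell beside it. Mat1a, with a larger fall than Ahcy and Gnmt, had no window. Sardh fell with a copy that is not shown, and Bhmt2 fell with no copy in its window. Capitals mark AGGTCA or its complement TGACCT, and all are written 5′ to 3′ on the gene's own strand (minus) of GRCm38.p6. The Bhmt sites start 234, 72 and 47 bases before the RefSeq start, at chr13:93637979-93638000, chr13:93637817-93637838 and chr13:93637792-93637813. Only site 1 lies outside the annotated span of Bhmt; sites 2 and 3 fall in its first exon in GENCODE M21. The Ahcy stretch is the 250 bases at chr2:155074498-155074747, and the Gnmt stretch the 247 bases at chr17:46729169-46729415.
Bhmt site 1: ccagatgtAGGTCAtgcagttt
Bhmt site 2: ccagatcaAGGTCAgaggcctg
Bhmt site 3: ttggacaaAGGTCAgtgtgcag
Ahcy upstream: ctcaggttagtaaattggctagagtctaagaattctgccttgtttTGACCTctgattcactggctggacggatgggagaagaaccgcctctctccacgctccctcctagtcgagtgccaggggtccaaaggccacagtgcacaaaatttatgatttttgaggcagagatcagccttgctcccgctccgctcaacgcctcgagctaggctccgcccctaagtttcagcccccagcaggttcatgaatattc
Gnmt upstream: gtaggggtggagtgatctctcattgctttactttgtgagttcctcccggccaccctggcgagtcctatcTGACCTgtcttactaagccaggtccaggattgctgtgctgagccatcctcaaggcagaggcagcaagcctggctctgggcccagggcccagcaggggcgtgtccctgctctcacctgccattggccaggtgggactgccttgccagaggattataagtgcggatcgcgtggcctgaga

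Other enzymes of these routes were read from lists. Of the 7 other methionine cycle genes, none passed for HFD against Control or for HFD + fenofibrate against HFD, and 1 was lower in HFD + fenofibrate than in Control. The most abundant of the 7 in Control livers, Ahcyl1, a relative of Ahcy, gave −0.10 ± 0.09 for HFD against Control (adjusted p = 0.544), and Mat2a, the most abundant in HFD livers, −0.31 ± 0.10 for HFD + fenofibrate against HFD. The list's median log2 fold changes were −0.01, −0.10 and −0.07 in the order of the comparisons above. For the lists below, every call for HFD + fenofibrate against HFD missed the threshold without HFD + fenofibrate libraries 1 and 3 together; the adjusted p was then lowest for As3mt (0.06) and highest for Amd1 (0.353). Of all genes tested, 6.13% were higher and 6.64% lower in HFD than in Control, and 6.89% were higher and 6.59% lower in HFD + fenofibrate than in HFD, beside which the counts of these short lists are given as a description.

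Among 7 transsulfuration and glutathione genes, 1 passed in each comparison, each time lower. Cth, which releases cysteine from cystathionine, was at 519 CPM in HFD + fenofibrate, 411.6 CPM in HFD and 1223 CPM in Control livers. It was lower in HFD than in Control (−1.57 ± 0.21, adjusted p = 2.5e-04) and lower in HFD + fenofibrate than in Control (−1.24 ± 0.21, adjusted p = 0.00216). HFD + fenofibrate against HFD gave 0.33 ± 0.21 (adjusted p = 0.292). Gclc, the catalytic subunit of the first enzyme of glutathione synthesis, was lower in HFD + fenofibrate (230.5 CPM) than in HFD (384.7 CPM) by −0.74 ± 0.19 (adjusted p = 0.0216). The Gclc call was lost without HFD library 1 (0.0734) or HFD + fenofibrate library 3 (0.0767).

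Of 16 folate genes tested of 18 listed, 2 were higher and 1 lower in HFD than in Control, 3 were higher and 2 lower in HFD + fenofibrate than in HFD, and none passed between HFD + fenofibrate and Control. Aldh1l1, which burns off one-carbon units from formyl-folate, was at 730.1 CPM in HFD + fenofibrate, 498 CPM in HFD and 865.3 CPM in Control livers. It was lower in HFD than in Control (−0.80 ± 0.12, adjusted p = 6.7e-04) and higher in HFD + fenofibrate than in HFD (0.55 ± 0.12, adjusted p = 0.0107), and its change between HFD + fenofibrate and Control was −0.25 ± 0.12 (adjusted p = 0.229). Mthfd1, a cytosolic enzyme with several folate activities, was higher in HFD + fenofibrate than in HFD (0.47 ± 0.09, adjusted p = 0.00467). Tyms, the thymidylate synthase, passed narrowly for HFD against Control (0.55 ± 0.17, adjusted p = 0.0471), and Ggh, which trims folate polyglutamates, for HFD + fenofibrate against HFD (−0.45 ± 0.14, adjusted p = 0.0493); these were lost in 14 and 13 of 24 alternatives.

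Of 11 serine and glycine genes tested, 4 were lower in HFD than in Control and none was higher. The serine dehydratase Sds and its relative Sdsl led these, at −1.04 ± 0.20 (adjusted p = 0.00318) and −1.31 ± 0.17 (adjusted p = 1.3e-04). Sdsl was also the 1 gene of the 11 to rise with fenofibrate against HFD (0.86 ± 0.17, adjusted p = 0.00512), while Psph, the last enzyme of serine synthesis, fell by 0.65 ± 0.19 (adjusted p = 0.0354) and the serine racemase Srr fell by 0.36 ± 0.10 (adjusted p = 0.0303). The calls of Psph and Srr were each lost in 8 of 24 alternatives, among them HFD libraries 1, 2 and 4 and HFD + fenofibrate libraries 1 and 3 left out singly (adjusted p from 0.0505 to 0.118). Psph also lost its call without HFD + fenofibrate library 4 (0.07), and Srr without HFD library 3 (0.08). With no scaling factors, Srr gave −0.20 (adjusted p = 0.228). Against Control, HFD + fenofibrate livers had more of Amt alone, a subunit of the glycine cleavage system (0.39 ± 0.11, adjusted p = 0.032). That call was lost in 7 of 24 alternatives, including the replicate block (0.0576), only the 8 libraries compared (0.053) and the omission of Control library 2 or 3 or HFD + fenofibrate library 2 or 3 (0.0577 to 0.0796). The median of the 11 was 0.13 for HFD against Control, above 0 although all 4 calls were lower.

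Choline, betaine and phosphatidylcholine genes showed 2 of 14 lower in HFD than in Control, 1 lower in HFD + fenofibrate than in HFD and none between HFD + fenofibrate and Control. Aldh7a1, which can oxidise betaine aldehyde, was lower in HFD (395.7 CPM) than in Control (531.6 CPM) by −0.43 ± 0.10 (adjusted p = 0.00913), and so was the betaine transporter Slc6a12 by −0.36 ± 0.11 (adjusted p = 0.0412, lost in 12 of 24 alternatives). Cept1, which joins choline or ethanolamine to diacylglycerol, was lower in HFD + fenofibrate (65.23 CPM) than in HFD (100.3 CPM) by −0.62 ± 0.15 (adjusted p = 0.018), a call lost without HFD library 1 or HFD + fenofibrate library 1 or 3 (0.0518 to 0.0657). Pcyt1a, the rate-limiting enzyme of the choline route that runs beside PEMT, stood at 74.6 CPM in HFD + fenofibrate, 70.85 CPM in HFD and 73.63 CPM in Control livers, with adjusted p from 0.62 to 0.933. In HFD + fenofibrate against Control, the most abundant gene of the list was Aldh7a1 (−0.17 ± 0.10, adjusted p = 0.28).

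Of 11 other enzymes that spend S-adenosylmethionine, 2 were higher and 2 lower in HFD than in Control, and 1 was higher and 2 lower in HFD + fenofibrate than in HFD. Nnmt, which methylates nicotinamide, had 88.83 CPM in HFD + fenofibrate, 61.18 CPM in HFD and 213.5 CPM in Control livers. It was lower in HFD than in Control (−1.80 ± 0.19, adjusted p = 2.4e-05) and also lower in HFD + fenofibrate than in Control (−1.27 ± 0.18, adjusted p = 7.8e-04), the 1 call of the list in that comparison. The arsenite methyltransferase As3mt was lower in HFD than in Control (−0.67 ± 0.14, adjusted p = 0.00454) and higher in HFD + fenofibrate than in HFD (0.73 ± 0.14, adjusted p = 0.00414). The histamine methyltransferase Hnmt took the reverse course, with 0.66 ± 0.16 for HFD against Control (adjusted p = 0.0158) and −0.65 ± 0.16 for HFD + fenofibrate against HFD (adjusted p = 0.0182). The second call was lost without HFD library 1 or HFD + fenofibrate library 1 or 3 (0.0563 to 0.067).

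In the methionine salvage and polyamine list, 10 of 11 genes were tested. Adi1, a salvage dioxygenase, was higher in HFD than in Control (0.28 ± 0.08, adjusted p = 0.0405, lost in 12 of 24 alternatives). With fenofibrate against HFD, the salvage isomerase Mri1 was higher (0.47 ± 0.11, adjusted p = 0.0148) and Amd1, which turns S-adenosylmethionine towards polyamines, was lower (−0.55 ± 0.15, adjusted p = 0.0273). Mri1 lost its call without HFD library 4 (0.0502) or HFD + fenofibrate library 3 (0.0563), and Amd1 in 6 of 24 alternatives. None passed between HFD + fenofibrate and Control, where the most abundant gene, Adi1, gave 0.23 ± 0.08 (adjusted p = 0.0998).

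Among 7303 genes with a mean of at least 10 CPM, those whose log2 levels ran most like a member over the 12 libraries are given with Pearson's r, as a description, since the libraries share groups and scaling. Mat1a ran most like the serine dehydratase relative Sdsl (0.976), Gsto1 (0.967) and Gm4737 (0.959). Bhmt ran most like its copy Gm5096 (0.995), then Appl1 (0.956) and the betaine transporter Slc6a12 (0.935), and Ahcy like its copies Gm4737 (0.989) and Gm9826 (0.969) and the metallothionein Mt1 (0.963). Counts of a copy can hold reads of the gene itself, so r with a copy is no separate measurement. Gnmt had Cyp27a1 (0.946), a bile acid enzyme, Slco1a4 (0.930) and Xpa (0.927) nearest to it. Sardh was nearest to Cyp2d22 (0.949), Fdxr (0.948) and Hdgfl2 (0.940), and Bhmt2 to Dcxr (0.951), Abat (0.940) and Selenbp1 (0.938). Pemt had Cgrrf1 (0.953), Mrpl30 (0.953) and Npm1 (0.952), Shmt1 had Vnn3 (0.919), Pid1 (0.904) and Nr1i3 (0.903), and Dmgdh had Ing1 (0.850), Selenbp2 (0.848) and Serpine2 (0.842).

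Among the 9 genes themselves, Gnmt and Ahcy ran together at r = 0.935, Mat1a and Ahcy at 0.923 and Gnmt and Bhmt at 0.908 over the 12 libraries. With the group means removed, these were 0.659, 0.435 and 0.770. All 3 pairs thus followed each other less closely within groups than across all libraries. Bhmt2 and Ahcy kept 0.844 within groups, beside 0.743 before. Bhmt2 and its neighbour Dmgdh gave 0.354 over the libraries and 0.608 with group means removed. HFD + fenofibrate library 2 was the highest of its group for Mat1a, Gnmt, Ahcy, Bhmt, Bhmt2 and Dmgdh, and its part in these values was not tested. Pemt and Sardh ran in opposite directions within groups, at −0.778.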

How the data were processed

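Liver RNA was sequenced in 12 libraries, 4 per group. Per the file headers, the 2 deposited tables hold raw read counts per gene as whole numbers, and they share the 4 HFD libraries, whose counts differed in 0 cells. HISAT2 2.0.5, StringTie 1.3.2d and HTSeq 0.6.0 are named in the submitters' processing notes, without settings; no source used here gives the annotation release or the strand setting. Builds mm8 and mm9 are listed in the labels, but 23225 of 25113 identifiers (92.5%) have the position of GENCODE M21 (GRCm38). The log2 fold changes and adjusted p-values deposited by the authors come from a test that is not named.

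Tables were joined by gene identifier, with counts of 0 for a gene missing from a table (1389 genes only with fenofibrate, 1118 only with the diet). Counts were fitted in edgeR 4.0.16 (R 4.3.3): filterByExpr, TMM factors of 0.884 to 1.161, 1 coefficient per group over all 12 libraries, quasi-likelihood tests and Benjamini-Hochberg adjustment over 13477 genes, called at 0.05. SE is the size of the change over the square root of F. The common biological coefficient of variation was 0.155. Ratios of counts were compared on the log2 scale by two-sided exact permutation tests. Alternatives were DESeq2 1.42.0, limma-voom 3.58.1, other scaling and filters, only the 8 libraries compared, a replicate block, a threshold of 0.01 and each library left out; added after seeing the data were no scaling, no HFD + fenofibrate libraries 1 and 3, and counts of copies added. Exon lengths and 50-base windows come from GENCODE M21.

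The 9 genes and the pathway lists were chosen with earlier results of these data known. Named beside the 9 are, per list and comparison, up to 2 called genes in each direction with the largest change, or the most abundant gene where none passed, plus Mat2a, Mtr, Pcyt1a and the 3 genes most like each member. A few list genes that this rule selects are counted but not reported singly here. Copies were named after their shared sequence was found.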

Additional observations from a re-analysis of the deposited data

Results flagged for a closer look

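In 36 groups of 4 values (9 genes in 3 groups, and 3 ratios in 3 groups), 2 held a library whose gap to the nearest other, divided by the group's range, exceeded Dixon's 95% critical value. Chance flags about 1 group in 20. Gnmt in HFD + fenofibrate library 2 was at 2856 CPM, with a gap of 0.836 of the range, against 1789 to 1964 CPM in the other HFD + fenofibrate libraries. Ahcy in the same library was at 3120 CPM, with a gap of 0.922 of the range, against 2366 to 2425 CPM in the others. That library had 13.94 CPM of acinar and 0.5339 CPM of muscle markers, against 2164 and 248.4 CPM in library 1, and it held the lowest Dbp-arm sum and the highest Arntl-arm sum of its group.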

How the results depend on the processing

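The calls of Mat1a, Gnmt, Ahcy and Bhmt for HFD against Control, of Bhmt2 for HFD + fenofibrate against HFD and of Shmt1 for HFD + fenofibrate against Control held under all 24 alternatives. The threshold of 0.01 is not among these 24. Of these calls, Bhmt (adjusted p = 0.0129) and Shmt1 (adjusted p = 0.0195) did not pass it. At an adjusted p under 0.01 there were 3 genes lower for HFD against Control and 1 higher for HFD + fenofibrate against HFD. There were 0 higher and 0 lower for HFD + fenofibrate against Control. Counts over all genes at that threshold are not given here. With no scaling factors there were 1 higher for HFD against Control and 7 higher for HFD + fenofibrate against HFD. For HFD + fenofibrate against Control there were 2 higher and 0 lower. Of all 13477 genes, 919 were then higher for HFD against Control and 2059 for HFD + fenofibrate against HFD. For HFD + fenofibrate against Control, 2119 were higher and 298 lower. That setting moved the median of all genes to 0.18 against HFD and 0.20 against Control. Without HFD + fenofibrate libraries 1 and 3, 1 gene was higher against HFD, where 55 of 13811 genes were. In that setting 0 were lower against Control, where 158 of 13811 genes were. The single lower gene of HFD + fenofibrate against Control, Ahcy, was also lost (0) with no low-count filter, with only the 8 libraries compared and with the replicate block; with 1 library left out the count ran from 0 to 4. The cause of these shifts was not tested, except that a stricter threshold can only lower a count. Leaving out HFD + fenofibrate libraries 1 and 3 changes both the number of libraries and the foreign tissue, which cannot be told apart here.

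The replicate block left 5 genes lower for HFD against Control, where 765 of all 13477 genes were lower. It left 0 lower for HFD + fenofibrate against Control, where 534 of all genes were lower. The other counts were as before. Same-numbered libraries had residual correlations of −0.175 to 0.139, 3 of 12 over 0.1, so the numbers were not taken as pairs. Paired by number, 4 pairs cannot bring a ratio under 0.05. Among the 9 genes and 3 ratios, directions reversed only for values that passed no test. Pemt for HFD against Control ran from −0.11 to 0.0432 with 1 library left out (0.0195 without HFD 3) and was 0.0032 with no scaling. Dmgdh for HFD + fenofibrate against HFD ran from −0.10 (without HFD + fenofibrate 2) to 0.10, with −0.0005, −0.0008 and −0.034 without HFD 1, 3 and 4. Sardh for HFD + fenofibrate against Control ran from −0.0147 (without Control 2) to 0.18, and the log2 ratio of Bhmt to Bhmt2 for HFD + fenofibrate against HFD from −0.0168 (without HFD + fenofibrate 2) to 0.41.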
